A study of Mus musculus with 2 samples.

Results

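Acyl-CoA thioesterases, encoded by the Acot genes, split fatty acyl-CoA into a free fatty acid and coenzyme A. Their levels were compared in the livers of NOG-TKm30 mice with and without acetoaceto-o-toluidide (AAOT), a derivative of o-toluidine used in making pigments. They were taken by gene symbol, and all 9 members (Acot1, Acot2, Acot3, Acot4, Acot7, Acot8, Acot9, Acot12 and Acot13) were found among 15526 genes listed. The AAOT group was 1 library of liver RNA mixed from 3 female NOG-TKm30 mice given 0.3% AAOT for 4 weeks, and the control group was 1 library mixed in the same way from 3 female NOG-TKm30 mice given 0%. Both groups were 22 weeks of age, and both carried the TKm30 transgene, a mutated herpes simplex virus thymidine kinase driven by the transthyretin enhancer and promoter, a sequence active in hepatocytes. The labels give both NOG, a severely immunodeficient strain, and C57BL as background. No label says by which route AAOT was given.

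The single comparison that the design allows is of the AAOT pool with the control pool. With 1 library per group there is no spread between animals, and no p-value is given. Levels are in CPM, the authors' scaling of reads to a common library size. A fold is a plain ratio of CPM, and the interval beside it is an exact 95% counting interval, which covers counting error only. Reads were recovered from the CPM, with the smallest value above 0 in each library taken as 1 read. Over the 15526 listed genes they summed to 18801241 for the control and 16528533 for AAOT. All 5 hepatocyte markers (Alb, Ttr, Apoa1, Cps1 and Hnf4a) were listed and summed to 73615 CPM without AAOT and 64626 CPM with it. Most of that sum was Alb (57688 and 50830 CPM), and the markers differed among themselves. Apoa1 was 1.63-fold lower, Ttr 1.28-fold lower and Cps1 1.196-fold higher, and Hnf4a had a ratio of 0.983 with an interval that holds equality (0.96 to 1.01). Markers of macrophages summed to 194 and 216 CPM, of endothelial cells to 299 and 296 CPM, and of stellate cells to 463 and 404 CPM. Within the endothelial sum Lyve1, at 7.05 and 11.1 CPM, was 1.57-fold higher (1.25 to 1.98) and Pecam1 1.24-fold lower (1.06 to 1.46). The intervals of Stab2, Clec4g and Kdr held equality. The part of these differences in the results was not tested. Of 5 adipocyte markers only Fabp4 was listed, and its level was 1.45 and 1.20 CPM. Cholangiocyte markers summed to 10.4 and 9.02 CPM, 3 of 4 neutrophil markers to 0.539 and 0.777 CPM, and none of 4 lymphocyte markers was listed. In whole liver RNA, fewer cells of a type and less RNA per cell cannot be told apart.

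Acyl-CoA thioesterases fall into 2 unrelated structural classes. The type I enzymes share an alpha/beta hydrolase fold and a cluster of neighbouring genes, while the type II enzymes carry the hotdog fold and lie apart in the genome. Members are known to be placed in different compartments, so that each sets the balance of acyl-CoA, free fatty acid and coenzyme A in the cytosol, the mitochondria or the peroxisomes. Several Acot genes are known targets of PPARalpha, the fatty acid receptor of the liver.

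The 4 type I members are neighbours on chromosome 12 (GENCODE M21 on GRCm38, the assembly that mm10 names), in the order Acot2 (83987861 to 83993873), Acot1 (84009490 to 84018371), Acot4 (84038379 to 84048601) and Acot3 (84052144 to 84060402), all on the plus strand. Acot5 (84069325 to 84076020), which the table does not list, and Acot6 (84100654 to 84111349) complete this run of 6 genes, which spans 123 kb. Their coding sequences are alike, which bears on the values of all 4. Acot1 and Acot2 are 95.6% identical over 1236 aligned coding bases and share an unbroken stretch of 273 bases. Acot3 is 84.0% identical to Acot1, 85.4% to Acot5 and 74.2% to Acot4. The end of the stretch that Acot1 and Acot2 share is printed here because it is where a read begins to tell them apart. The lines give coding bases 1120 to 1199 of Acot1 and the aligned bases of Acot2 (1243 to 1322) and Acot3 (1159 to 1238), 5′ to 3′, from the GENCODE transcripts, with capitals where a base differs from Acot1:
Acot1: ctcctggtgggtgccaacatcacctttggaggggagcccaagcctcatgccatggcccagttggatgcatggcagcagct
Acot2: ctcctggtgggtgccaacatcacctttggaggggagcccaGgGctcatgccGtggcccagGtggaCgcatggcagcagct
Acot3: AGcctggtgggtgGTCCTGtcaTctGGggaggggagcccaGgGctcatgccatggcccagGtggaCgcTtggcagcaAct

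In these 80 bases Acot2 differs from Acot1 at 5 positions and Acot3 at 17. A read that falls in the shared part could be given to either gene. Of all 50-base stretches in the longest coding transcript, 66.4% in Acot1, 72.3% in Acot2, 80.5% in Acot3 and 95.1% in Acot4 occur in no other gene's transcripts. The values of Acot1, Acot2 and Acot3 are therefore uncertain as single genes. Acot3 and Acot4 are also overlapped on their own strand by the gene model Gm49366 and on the other strand by the antisense gene 4732463B04Rik, neither of which the table lists. Elsewhere, Acot8 overlaps Snx21 and Acot12 overlaps 4833422C13Rik, both listed and on the opposite strand, so reads could be mixed there if strand was not used.

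Within this cluster the pools differed gene by gene. Acot3, a peroxisomal thioesterase of medium- and long-chain acyl-CoA, was at 58.2 CPM without AAOT (1081 reads) and 96.4 CPM with it (1614 reads), 1.66-fold higher (1.53 to 1.79). Its neighbour Acot1, the cytosolic long-chain enzyme, was at 73.6 CPM without AAOT (1366 reads) and 58.2 CPM with it (974 reads), 1.26-fold lower (1.16 to 1.37). The counting intervals of the pools did not overlap for either gene, and Acot1 had more CPM than Acot3 without AAOT and fewer with it. Acot2, the enzyme of the mitochondrial matrix, was at 16.2 CPM (300 reads) and 20.02 CPM (335 reads), 1.24-fold higher (1.06 to 1.45) in the AAOT pool. Acot4, a peroxisomal enzyme that acts on succinyl-CoA, was slightly higher, at 68.6 CPM (1274 reads) and 74.9 CPM (1253 reads), a ratio of 1.09 (1.01 to 1.18).

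**Figure D1:**
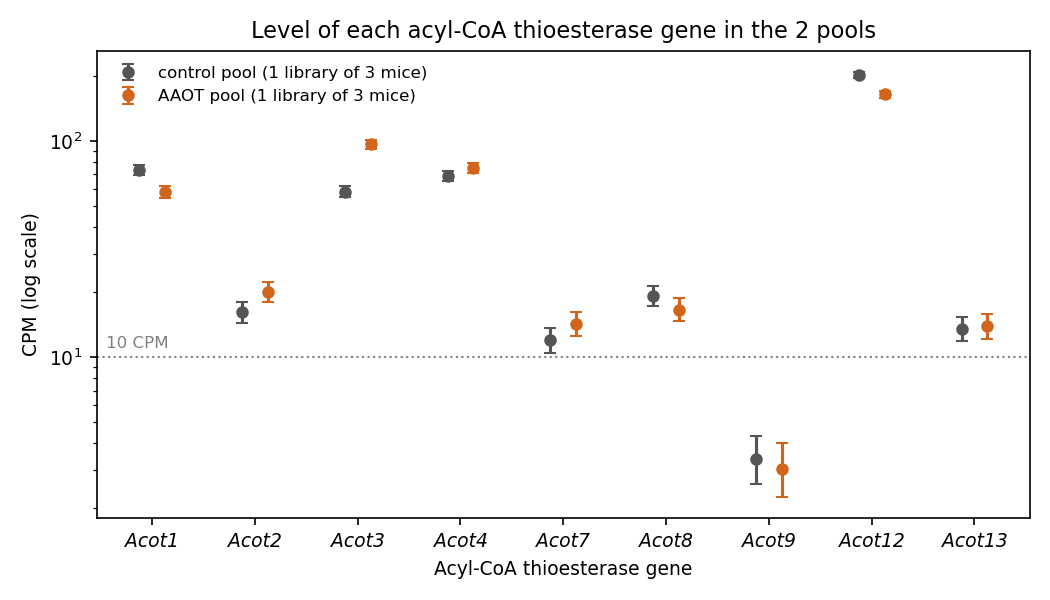
CPM of each of the 9 acyl-CoA thioesterase genes on a log scale, with grey points for the control pool, orange points for the AAOT pool and bars for the exact 95% Poisson interval of the reads. Acot12 was the highest in both pools, Acot3 was higher in the AAOT pool (96.4 against 58.2 CPM), and Acot9 lay below 10 CPM in both.

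The makeup of the cluster's reads shows the same difference without any scaling between the libraries. Of the reads of Acot1, Acot2, Acot3 and Acot4, Acot3 took 26.9% in the control pool (95% exact binomial interval 25.5 to 28.3) and 38.6% in the AAOT pool (37.2 to 40.1). Acot1 took 34.0% (32.5 to 35.5) and 23.3% (22.05 to 24.6). The shares of Acot4, at 31.7% and 30.0%, and of Acot2, at 7.46% and 8.02%, had intervals that overlapped between the pools. In the control pool the intervals of Acot1 and Acot4 overlapped, and in the AAOT pool Acot3 took more reads than each of the others. These shares are of reads and are not corrected for length.

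**Figure D2:**
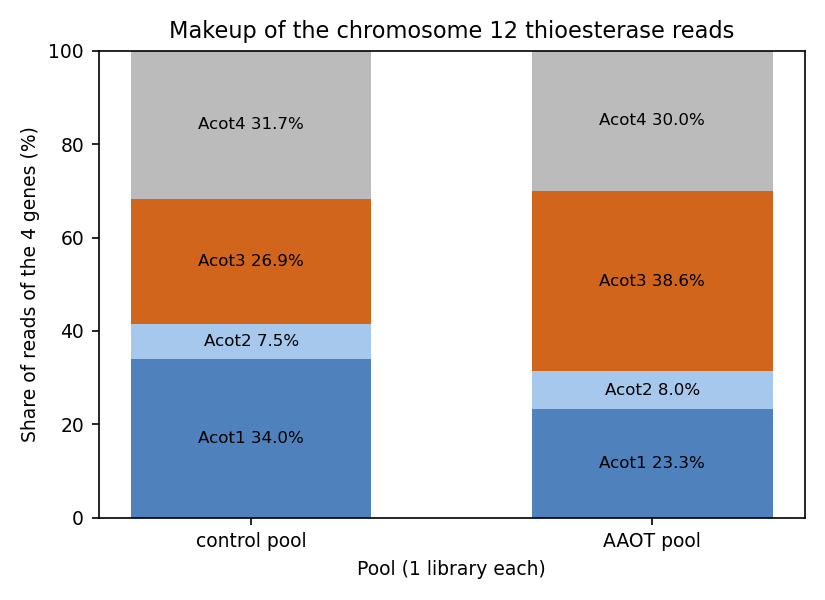
Stacked bars of the share of reads, in percent, that each of Acot1, Acot2, Acot3 and Acot4 took of the reads of these 4 genes, for the control pool and the AAOT pool (1 library each). The Acot3 part grows from 26.9% to 38.6% and the Acot1 part shrinks from 34.0% to 23.3%.

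Sums over near-identical genes do not depend on how reads were split between them. Acot1 and Acot2 together were at 89.7 CPM without AAOT and 78.2 CPM with it, 1.15-fold lower (1.07 to 1.23), although Acot2 alone was higher. Within that pair Acot2 took 18.0% of reads (16.2 to 19.9) in the control pool and 25.6% (23.2 to 28.05) in the AAOT pool. The 4 chromosome 12 members summed to 217 CPM and 249.5 CPM, 1.15-fold higher in the AAOT pool (1.103 to 1.204). The other 5 members summed to 249.5 CPM and 212 CPM, 1.18-fold lower (1.13 to 1.23). All 9 members summed to 466 CPM and 461 CPM, 1.01-fold lower (0.98 to 1.04), an interval that holds equality, and under 5 other scalings the ratio of this sum ran from 0.985 to 1.02. Without Acot3 the other 8 summed to 408 and 365 CPM, 1.12-fold lower (1.08 to 1.16).

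By compartment the sums went different ways. The peroxisomal members Acot3, Acot4 and Acot8 summed to 146 CPM without AAOT and 188 CPM with it, 1.29-fold higher (1.22 to 1.36). The cytosolic members Acot1, Acot7 and Acot12 summed to 287 and 236 CPM, 1.21-fold lower (1.16 to 1.27). The mitochondrial members Acot2 and Acot9 summed to 19.5 and 23.1 CPM, a ratio of 1.18 (1.02 to 1.37), in which Acot2 was higher and Acot9 had a ratio of 0.898. With Acot13, which associates with mitochondria and is in none of these sums, the values were 33.1 and 37.0 CPM, a ratio of 1.12 (0.999 to 1.25) whose interval holds equality. Acot3 supplied 38.2 of the 41.9 CPM by which the peroxisomal sum differed, and Acot12 supplied 37.5 of the 50.6 CPM by which the cytosolic sum differed.

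The type II members lie on 4 other chromosomes, and 4 of these 5 genes have no 50-base stretch in common with another gene. Acot12 (chromosome 13, 91741512 to 91786148, plus strand, 15 exons), the cytosolic enzyme that hydrolyses acetyl-CoA, had the most CPM of the 9, at 202 CPM without AAOT (3742 reads) and 164 CPM with it (2744 reads). It was 1.23-fold lower in the AAOT pool (1.17 to 1.29), and its share of all reads of the 9 genes was 43.2% in the control pool (42.2 to 44.3) and 35.5% in the AAOT pool (34.5 to 36.6). Acot8 (chromosome 2, 164792765 to 164804882, minus strand), a peroxisomal enzyme of broad specificity that also acts on bile acid CoA esters, was at 19.2 CPM (356 reads) and 16.6 CPM (278 reads), 1.15-fold lower with an interval of 0.98 to 1.35 that holds equality.

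Acot7 (chromosome 4, 152178134 to 152271855, plus strand), a cytosolic long-chain enzyme best known from brain, was at 11.95 CPM (222 reads) and 14.3 CPM (239 reads), a ratio of 1.19 (0.99 to 1.44). Acot13 (chromosome 13, 24817948 to 24831540, minus strand), also called Them2, which associates with mitochondria and binds the phosphatidylcholine transfer protein, was at 13.5 CPM (251 reads) and 13.9 CPM (233 reads), a ratio of 1.03 (0.86 to 1.24). For Acot13 and Acot8 a difference was not detectable at this depth, and for Acot7 that held on the deposited scale but not under 3 of 5 other scalings. Acot9 (chromosome X, 155262443 to 155297654, plus strand), a mitochondrial enzyme, was the lowest member, with 63 reads and 51 reads or 3.39 and 3.05 CPM, a ratio of 0.898 (0.61 to 1.32). Its coding sequence is 97.2% identical to that of the single-exon gene Acot10 on chromosome 15, which the table does not list, and 20.2% of its 50-base stretches are shared with it.

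Levels of different genes can be compared only per length, here as CPM per kb of the longest annotated transcript. In the control pool the order was Acot12 (65.9 CPM per kb), Acot1 (28.2), Acot13 (18.7), Acot3 (17.0), Acot8 (15.02), Acot4 (11.1), Acot7 (7.94), Acot2 (7.36) and Acot9 (1.94). The counting intervals overlapped between Acot13 and Acot3, between Acot3 and Acot8, and between Acot7 and Acot2, so these neighbours cannot be ordered. In the AAOT pool Acot3 stood second, at 28.1 CPM per kb, above Acot1 at 22.3 and Acot13 at 19.3, whose intervals overlapped. The middle of the order depended on the length used. Per coding length, Acot4 stood beside Acot1 in the control pool, at 54.3 CPM per kb against 58.5 for Acot1 and 44.9 for Acot3. The coding lengths of Acot4 and Acot1 are close, at 1263 and 1257 bases. Their control CPM intervals overlapped (64.9 to 72.5 and 69.7 to 77.6), so this pair cannot be ordered either. Acot12 remained the highest, Acot9 the lowest and Acot3 second in the AAOT pool with each of the 4 lengths tried.

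Of the 9 members, 8 had a mean over both pools of at least 10 CPM, the floor for the counts that follow, and Acot9 did not. Counts used log2((AAOT + 1)/(control + 1)), with 1 CPM added to each level. None of the 8 was at least 2-fold higher or lower, while among the 7761 genes past this floor the shares were 0.773% for 2-fold higher and 0.425% for 2-fold lower. At a smaller size, 1 of 8, Acot3, was at least 1.5-fold higher and 0 were at least 1.5-fold lower, while 2.07% of all genes were that much higher and 1.39% that much lower. This smaller size was set because earlier results of these data gave the family ratios between 1.5 and 2, a range only Acot3 reached here. The count of 1 is therefore a description and not a test. Acot3, at 0.72 on this log2 scale, stood at rank 109 from the highest of the 7761 genes.

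The counting interval excluded equality for 5 of 8 members, higher for Acot2, Acot3 and Acot4 and lower for Acot1 and Acot12. Under 3 of 5 other scalings it also did so for Acot7, which makes 6 of 8. On the deposited scale it excluded equality for 39.5% of all genes above the floor. The log2 ratios of the 8 ran from -0.33 (Acot1) to 0.72 (Acot3) with a median of 0.08, beside a median of -0.02 and an SD across genes of 0.29 for all genes. Acot1 lay at percentile 5.26, Acot12 at 7.40, Acot2 at 92.0 and Acot3 at 98.6 of all genes.

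**Figure D3:**
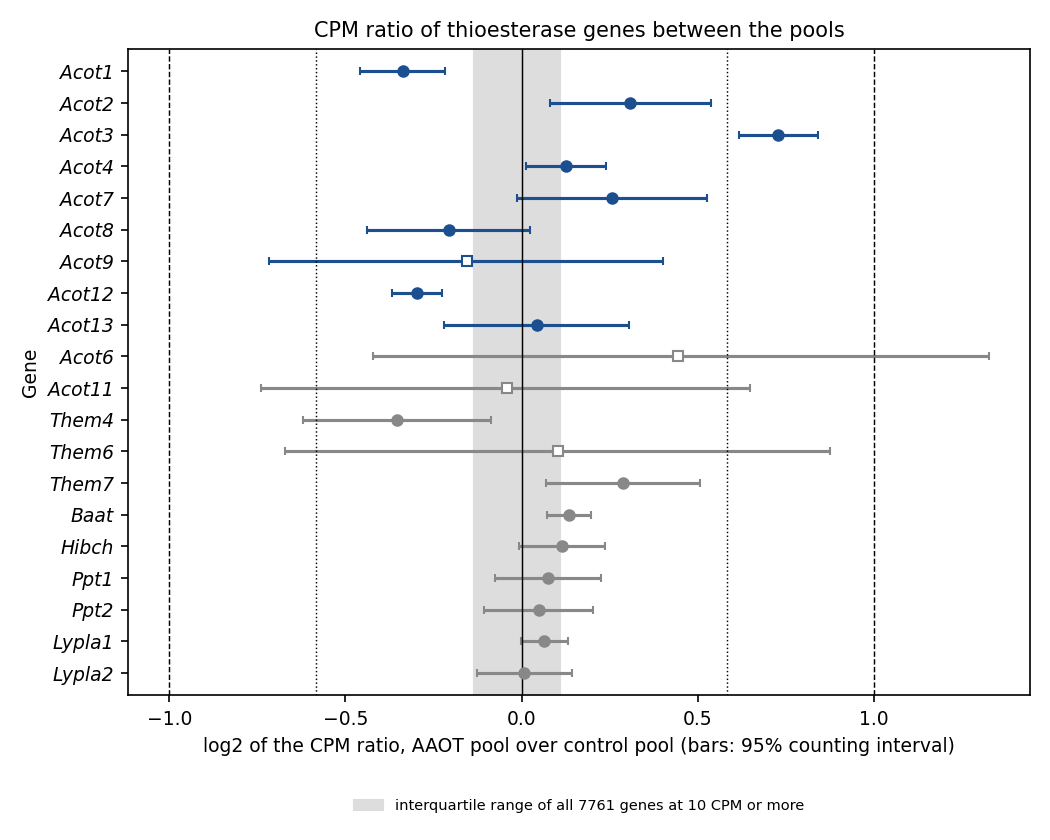
Log2 of the plain CPM ratio of the AAOT pool over the control pool for the 9 members (blue) and 11 other thioesterase genes (grey), with bars for the exact 95% counting interval and open squares for genes under 10 CPM. The band is the interquartile range of all 7761 genes, dotted lines mark 1.5-fold and dashed lines 2-fold, and Acot3 is the only gene plotted whose point and whole interval lie beyond 1.5-fold.

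Other enzymes that split thioesters were compared for reference. Of 15 such genes 11 were listed and 8 were above the floor, with log2 ratios from -0.33 to 0.27, a median of 0.07 and 0 of 8 past 1.5-fold in either direction. Baat, which conjugates bile acids to amino acids and belongs to the same structural family as the type I enzymes, had the most CPM of them, at 222 and 244, a ratio of 1.10 (1.051 to 1.15). Them4, a mitochondrial relative of Acot13, was the lowest in ratio, at 15.3 CPM without AAOT and 12.01 CPM with it, 1.28-fold lower (1.06 to 1.54). Them7 was at 17.8 and 21.7 CPM, 1.22-fold higher (1.049 to 1.42).

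Hibch, a hydrolase of valine breakdown, was at 59.2 and 64.1 CPM, a ratio of 1.08 (0.99 to 1.18). The protein depalmitoylating enzymes Ppt1 (39.96 and 42.1 CPM), Lypla1 (204 and 214 CPM) and Lypla2 (51.1 and 51.4 CPM), and the related Ppt2 (38.1 and 39.4 CPM), each had an interval that holds equality. The other 3 listed genes lay under the floor. Acot6, the last gene of the chromosome 12 run, had 22 and 27 reads, Acot11, best known from brown fat, had 40 and 35, and Them6 had 31 and 30. Beside the cluster, Riox1 (listed as 2410016O06Rik) was at 6.73 and 5.86 CPM, Dnal1 at 1.29 and 2.21 CPM, Pnma1 at 0.323 and 0.657 CPM and Elmsan1 at 27.8 and 26.8 CPM, so no gene annotated within 50 kb of the cluster and listed had as many CPM as Acot1, Acot3 or Acot4.

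Thioesterases act on acyl-CoA that synthetases make. Of 20 synthetase and fatty acid transporter genes, 14 were above the floor, with 1 at least 1.5-fold higher, 0 lower and a median log2 ratio of 0.14. Acss2, which makes acetyl-CoA from acetate in the cytosol, was at 77.0 CPM without AAOT and 207 CPM with it, 2.68-fold higher (2.52 to 2.86). The long-chain synthetase Acsl5 was 1.32-fold higher (1.27 to 1.36), at 318 and 419 CPM. Acsl1, which had the most CPM of this list, was at 1570 and 1099 CPM, 1.43-fold lower (1.40 to 1.46), and the very-long-chain synthetase Slc27a2 was 1.38-fold lower (1.35 to 1.41). For CoA supply and breakdown, 12 genes passed the floor, and 0 were at least 1.5-fold higher and 2 at least 1.5-fold lower. These were Vnn1, a pantetheinase, at 3.17-fold lower (2.80 to 3.60), and the mitochondrial CoA carrier Slc25a42, at 1.51-fold lower (1.42 to 1.60), and 3 of 5 other scalings left only 1 past 1.5-fold. The kinase of CoA synthesis Pank1 was at 335 and 319 CPM. The highest ratios were those of the pantothenate transporter Slc5a6, 1.31 (1.09 to 1.56), and the peroxisomal CoA hydrolase Nudt19, 1.27 (1.13 to 1.43).

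Counts of genes below 0 are read beside all genes above the floor, of which 53.6% were below 0 (42.5% to 55.5% under other scalings). Of 14 genes of mitochondrial oxidation 13 were below 0 (13 or 14 under other scalings), with a median of -0.21 and none past 1.5-fold, such as the thiolase Acaa2, at 703 and 584 CPM. Decr1, which handles double bonds, was 1.22-fold lower (1.16 to 1.28), and the highest ratios were 1.002 for Echs1 and 0.965 for Hadh. Of 11 acyl-CoA binding and carnitine genes 8 were below 0 (7 to 10 under other scalings), beside 53.6% of all genes, with a median of -0.11 and none past 1.5-fold. The peroxisomal carnitine octanoyltransferase Crot was 1.43-fold lower (1.39 to 1.47) and the carnitine acetyltransferase Crat 1.49-fold lower (1.37 to 1.63), while the highest ratios were 1.03 for Acbd3 and 1.001 for Acbd6. Of 17 genes of peroxisomal oxidation 11 were below 0 (also 11 under other scalings), with a median of -0.09. In this list 1 gene was at least 1.5-fold higher, at a log2 ratio of 0.72, and 0 were at least 1.5-fold lower. For no list, here or below, was it tested whether the count below 0 departs from the share of all genes. The alpha-oxidation lyase Hacl1 was 1.39-fold higher (1.35 to 1.43), and the thiolase Scp2 was 1.33-fold lower (1.31 to 1.35) and Ehhadh 1.27-fold lower (1.24 to 1.30).

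Of 17 genes in the list of PPARalpha and its targets above the floor, 15 were below 0 (13 to 15 under other scalings), beside 53.6% of all genes, with a median of -0.34, 0 at least 1.5-fold higher and 2 at least 1.5-fold lower. Under 4 of 5 other scalings 1 gene was at least 1.5-fold higher, and under 3 of them only 1 was lower. The list overlaps the oxidation lists in part. The omega-hydroxylase Cyp4a14 was 1.51-fold lower (1.47 to 1.56). The lipase inhibitor Angptl4, at 1.504-fold higher (1.42 to 1.60) and under 1.5-fold on the deposited scale after the added constant, had the highest ratio, and Pdk4, which restrains glucose oxidation, came next with a ratio of 1.14 (0.98 to 1.33). Vnn1 is also on this list and was its lowest. Of the Acot genes, Acot1 and Acot12 were lower, as was most of this list, and Acot2, Acot3 and Acot4 were higher. Acot3 had a log2 ratio of 0.72 against 0.58 for Angptl4. Whether PPARalpha had a part in any of these differences was not tested.

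**Figure D4:**
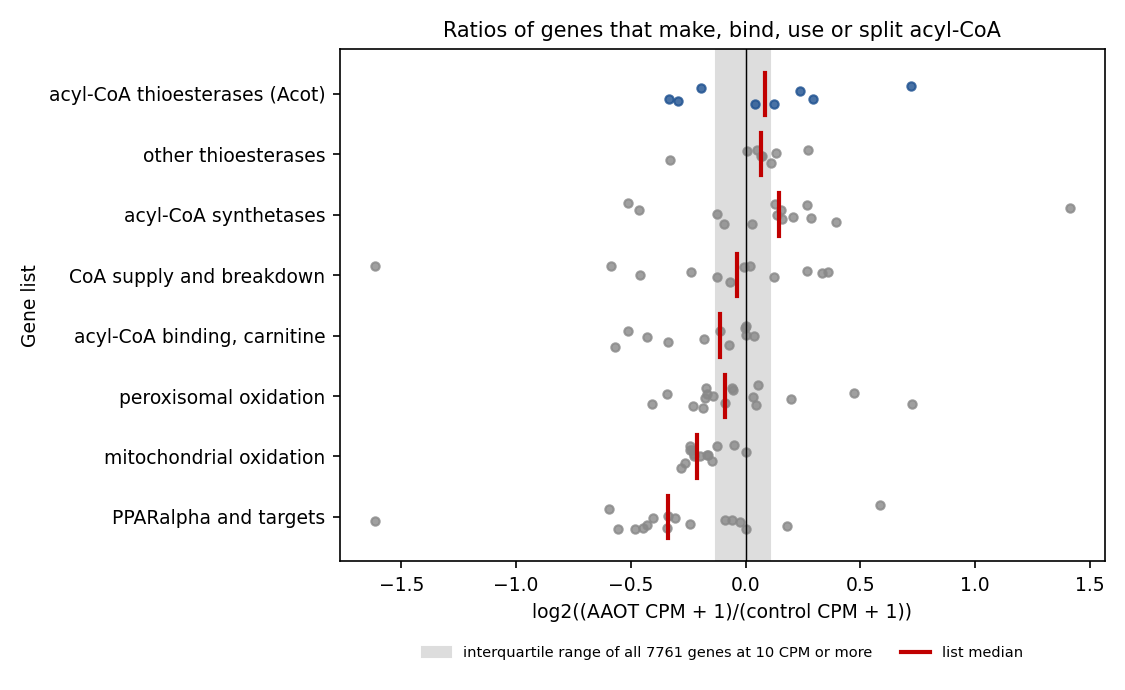
Each point is the log2((AAOT CPM + 1)/(control CPM + 1)) of 1 gene above 10 CPM, by gene list, with a red bar at the list median and a band for the interquartile range of all 7761 genes. The Acot genes spread on both sides of 0 around a median of 0.08, while the mitochondrial oxidation genes lie close together around -0.21.

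Because PPARalpha binds direct repeats of a hexamer spaced by 1 base, the promoters of the members were searched for AGGTCANAGGTCA on both strands, where N is any base. The windows were the 300 bases from 250 before to 50 after each RefSeq start (GRCm38.p6), and 8 of 9 members had one. Each member's best match was taken. Acot12 had 1 mismatch, a number reached by 0.554% of 32841 promoters, Acot4 had 2, reached by 3.86%, and Acot2 and Acot3 had 3, reached by 24.6%. The best matches of Acot1, Acot7 and Acot9 had 4 mismatches and that of Acot8 had 5. The windows of the closest matches and of the neighbours that differed in opposite directions are shown 5′ to 3′ on the gene's strand, with the match in capitals. Those of Acot12, Acot4 and Acot3 lie on the opposite strand and read as the reverse complement:
Acot12, chr13:91741403-91741431, plus strand: taggacccTGACCTCTCACCTcctaagca
Acot4, chr12:84038358-84038386, plus strand: ccgaagcaTGACCTTTGGCCGgtctgtgc
Acot3, chr12:84052131-84052159, plus strand: tccatctcTGACTTCTGCCGTtattagct
Acot1, chr12:84009401-84009429, plus strand: ggaggtgtCTGTCTGAGGCCAaccaatgg

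The closest match thus stood in the window of Acot12, which was lower in the AAOT pool. The next stood in that of Acot4, which was 1.09-fold higher (1.01 to 1.18). The window of Acot3 held no match closer than that of 24.6% of all promoters. Binding was not measured, and these matches describe letters in a short window only.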

How the data were processed

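Liver RNA of 2 pools of 3 mice was sequenced, 1 library per group, with ribosomal RNA depletion and a directional kit (200 ng input, per the labels). CPM values in 1 table were deposited by the authors, with a scaling factor for each library. Tools named in the submitters' processing notes, with no role or order, are RSEM, edgeR, Bowtie2 and Trimmomatic 0.38, and the build is mm10. No source used here gives the annotation or the strand setting of the counting. Within a relative tolerance of 1e-06, 100% of the deposited CPM were whole multiples of the smallest CPM above 0 in their library. That smallest value was taken as 1 read. RSEM estimates need not be whole, and whether the authors rounded them is not stated. Every listed gene has at least 2 reads over both libraries.

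No count model was run, since 1 library per group leaves no spread to estimate. Ratio intervals are Clopper-Pearson at 95%, conditional on the summed reads. They cover counting error only, as do the binomial intervals of shares and the Poisson intervals of levels. Each column carries its library's code from the labels. The members, the gene lists and the 1.5-fold size were chosen with earlier results of these data known. The text names the 9 members, other listed thioesterases, genes within 50 kb of the chromosome 12 cluster, and of each pathway list the gene with the most CPM and the 2 highest and 2 lowest in ratio above 10 CPM. Some genes that this rule names are not reported here. Positions, transcripts and 50-base stretches came from GENCODE M21, and promoters from RefSeq. The ratio, its counting interval and the fold count were tested on simulated Poisson reads, which hold no spread between animals. The other steps were not tested in this way. Alternatives were 5 other scalings, added constants of 0.1 and 5 CPM, floors of 1 and 50 CPM and none, and other transcript lengths. Tools were scipy 1.17.1, numpy 2.4.6, pandas 2.3.3, biopython 1.88 and matplotlib 3.10.9 under Python 3.11.15.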

Additional observations from a re-analysis of the deposited data

How the results depend on the processing

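For each of the 9 members, 5 other scalings and 2 other added constants kept the log2 ratio within its counting interval, 63 values in all. For Acot3 it ran from 0.68 to 0.77 and for Acot1 from -0.34 to -0.29. Under every scaling, constant and floor tried, 0 members were past 2-fold and 1 past 1.5-fold. The log2 ratio of the summed CPM, -0.01 over 9 members, was -0.15 without the 4 members with under 90% unique stretches and -0.16 without Acot3, the latter chosen after seeing the data. The order by control CPM per kb changed for 3 members with the mean transcript length and for 5 with the coding length, and for 0 with the longest coding transcript; the last pair of lengths was chosen after seeing the data. The median of the CoA supply list, -0.04, was 0.008156 with library totals without Rn45s. That of the acyl-CoA binding and carnitine list, -0.11, was -0.26 with a floor of 50 CPM. No paired analysis was possible because each group holds 1 library. Acot9, with 63 and 51 reads, is limited by depth.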
